A study of Drosophila melanogaster with 2 samples.

Results

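Below the strongest CG17801 binding sites of the fly ovary lay 6277 weaker peaks that were found in both replicates, away from annotated transcription start sites (TSSs). They were chosen by their pooled signal and their summits in the replicate lists, that is, by measured values. They were taken from a pooled list of 30000 peaks, of which 6723 passed the irreproducible discovery rate (IDR) procedure, a filter on how well peaks are ranked alike in replicates. A peak was kept when it was among the 23277 peaks outside the IDR list, when its summit (the base of highest signal in the peak) had a summit within 100 bp in the list of each replicate, and when it lay over 250 bp from any TSS. Of the 23277 peaks, 9342 were matched in both replicates and 6324 of these were distal. Leaving out the 47 on chromosome 4 gave the 6277, or 20.9% of the pooled list and 36.7% of the 17115 distal peaks below the IDR list. They are called weaker distal peaks here. Beside them stand 2874 distal peaks of the IDR list (IDR distal peaks) and 10838 distal peaks below it without a match in both replicates (unmatched distal peaks).

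The study profiled where CG17801 sits on the genome in ovaries of adult female Drosophila melanogaster of unknown age. The flies were a transgenic line made by site-specific recombination that stably expresses CG17801 with a C-terminal GFP tag, and anti-GFP antibody was used for ChIP-seq. There was 1 group with 2 biological replicates, numbered 1 and 3, and both carried the tagged transgene. What limits the line as a model is that binding was read through the tag and in whole ovary, where germline and somatic cells are mixed. Flies without the tagged protein were not analysed here.

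CG17801 is a C2H2 zinc finger protein of the ZAD family, which is large in insects and includes several proteins that act at promoters and insulators. Distal elements such as enhancers often lie in introns and in the sequence between genes, and carry clusters of short motifs read by sequence-specific factors. In the fly ovary such factors include GATA proteins, the ecdysone-responsive Ets and nuclear receptor proteins, and FoxO, all of which are active in follicle cells or the germline.

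The sequences at the summits of the strongest weaker distal peaks are shown first, as windows of 50 bp on each side of the summit on the plus strand of Release 6 from RefSeq, in lower case because they hold none of the words marked in the later sets. They lay in introns of tkv (chr2L:5256296-5256396), fax (chr3L:16408694-16408794) and chas (chrX:17695007-17695107) and upstream of CG43658 (chrX:17562050-17562150).
tkv: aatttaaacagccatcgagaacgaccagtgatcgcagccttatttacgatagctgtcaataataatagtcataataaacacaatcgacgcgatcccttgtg
fax: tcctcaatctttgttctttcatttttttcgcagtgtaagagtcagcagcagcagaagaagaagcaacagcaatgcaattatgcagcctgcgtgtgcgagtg
chas: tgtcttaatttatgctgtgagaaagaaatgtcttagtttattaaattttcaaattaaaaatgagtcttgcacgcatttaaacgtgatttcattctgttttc
CG43658: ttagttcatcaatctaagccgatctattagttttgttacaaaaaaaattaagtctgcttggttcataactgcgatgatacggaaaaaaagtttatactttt

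The frequent 6-mer with the largest ratio of summit share to flank share was GATAAG, an extended GATA site. It is shown in 41 bp windows, with capitals marking GATAAG or its reverse complement, in peaks at mgl (chrX:9454302-9454342), where 2 copies overlap, fbl (chr3L:20385589-20385629) and mtd (chr3R:5303015-5303055).
mgl: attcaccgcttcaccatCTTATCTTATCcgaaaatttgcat
fbl: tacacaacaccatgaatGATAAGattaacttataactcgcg
mtd: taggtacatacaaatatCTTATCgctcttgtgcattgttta

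The panel motifs with the largest ratio of summit share to flank share, among those in at least 2% of peaks, were FoxO, CA repeat and GATA. FoxO (TGTTTAC, capitals) is shown at mtd (chr3R:5303033-5303073) and at tmod (chr3R:30564718-30564758) and Atg1 (chr3L:12797283-12797323). A run of CA repeat is shown at NK7.1 (chr3R:14349096-14349136), and the panel's GATA word AGATAA at pyd (chr3R:8892552-8892592).
mtd: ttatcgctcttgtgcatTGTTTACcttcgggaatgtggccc
tmod: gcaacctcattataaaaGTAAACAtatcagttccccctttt
Atg1: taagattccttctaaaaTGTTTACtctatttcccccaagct
NK7.1: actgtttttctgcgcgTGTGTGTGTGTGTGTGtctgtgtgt
pyd: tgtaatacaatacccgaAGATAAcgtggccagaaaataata

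The word TGCATACTT, part of the longer site of the insulator protein Su(Hw), was rare but had a large ratio of summit to flank. It is marked by capitals in peaks at CG34260 (chr3L:20711640-20711680), CG14434 (chrX:6864789-6864829) and Or24a (chr2L:4169621-4169661).
CG34260: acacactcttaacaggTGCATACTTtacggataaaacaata
CG14434: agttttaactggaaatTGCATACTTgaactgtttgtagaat
Or24a: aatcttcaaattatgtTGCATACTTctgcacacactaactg

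Signal values are those the authors deposited, their scale is not stated, and they are compared only within a list. All 6723 IDR lines were the highest signals of the pooled list, so the upper limit of the weaker distal peaks is a limit on pooled signal. Their signal ran from 26.4 to 117, with a median of 62.9 and quartiles of 47.4 and 82.8. Their pooled ranks ran from 6724 to 29972. The pooled list was made from the reads of both replicates, so it is not independent of the replicate lists, and these values chose the peaks and are given as a description.

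The peak of highest signal lay between genes near CG13323 on 2R, at 116.657, and ranked 6504 in replicate 1 and 7828 in replicate 3. The next lay in the first intron of tkv, which encodes a type I receptor for BMP ligands, and ranked 7471 and 7932. The peak in fax, a gene named for axon connections, ranked 4921 and 9819. These 3 were also the peaks just inside the IDR limit. The 3 peaks just outside that limit lay in PRAS40, near sim and in CG14434, with pooled signals of 116.663, 116.681 and 116.704. Peaks on both sides of this limit had nearly equal pooled signals.

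Other peaks among the 12 of highest signal had ranks of similar size. The peak in Glyp, the glycogen phosphorylase gene, ranked 7006 and 9250. The peak in mgl, which encodes an endocytic receptor of the LDL receptor family, ranked 8188 and 6477. The peak in the 5′ UTR of Unr, an RNA-binding protein gene, ranked 8276 and 7109. In chas the ranks were 2543 and 11804, so that replicate 1 placed it far higher. The peak in Drat ranked 996 and 1920, far above its pooled rank of 6745, and its summit lay 227 bp from an IDR summit. Its matched summits lay 95 bp away in replicate 1 and 39 bp away in replicate 3.

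At the other limits, peaks on both sides had values of the same size. At the TSS limit the peaks just inside included those near GNBP3 and CG3397, 251 bp from a TSS, with pooled signals of 93.6 and 89.0. The 3 just outside, at GlcAT-S, Sirt1 and CG32066, lay 250 bp away and had signals of 91.6, 93.8 and 72.4. At the match limit, peaks in Plc21C and Pino were kept with a replicate summit 100 bp away, and peaks near mthl15, asRNA:CR44224 and Tpr2 were left out because a replicate summit lay 1 bp beyond the limit.

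Summit positions in the replicates were used to choose the peaks, which fixes a distance of at most 100 bp, so the distances here are a description. The matched summit lay a median of 25 bp away in replicate 1 and 16 bp in replicate 3, and 91.3% of the replicate summits were within 100 bp of each other. No replicate summit was shared by 2 of the peaks. Whether a replicate summit was also the match of an IDR peak was not counted. In replicate 1 the ranks ran from 996 to 29991 with a median of 15099, and in replicate 3 from 1630 to 29993 with a median of 14901. Across the 6277 peaks the Spearman correlation of the ranks was 0.337, against 0.663 across the 2688 IDR distal peaks matched in both lists. Both correlations are across peaks of 2 libraries and cover different ranges of signal and rank.

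A total of 370 weaker distal peaks ranked within the first 6723 of replicate 1 and 297 did so in replicate 3, and 11 did so in both. The limit on pooled signal, which draws on the reads of both replicates, leaves little room for peaks high in both lists. Ranks were within a factor of 2 for 83.1% of the weaker distal peaks and further apart for 1061. For IDR distal peaks matched in both lists they were within a factor of 2 for 73.3%. These shares cannot show which group was more alike between replicates, because the groups cover different ranges of rank. Median ranks in replicates 1 and 3 were 15099 and 14901 for weaker distal peaks, and 3630.5 and 3333 for all IDR distal peaks. Low in a list of fixed length, ranks have less room to differ by a given factor. Replicate 1 gave the better rank for 49.4% of the weaker distal peaks.

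The share of matched peaks was lower further down the pooled list. Of the distal peaks in the first 3000 ranks, 97.7% were matched in both replicates. The share was 79.5% at ranks 9001 to 12000, 47.9% at ranks 15001 to 18000 and 3.46% at ranks 27001 to 30000. The weaker distal peaks therefore came mostly from the upper ranks below the IDR list, with 1462 at ranks 9001 to 12000 and 88 in the last 3000. Every list held exactly 30000 lines, so a replicate peak below that rank could not be matched.

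**Figure D1:**
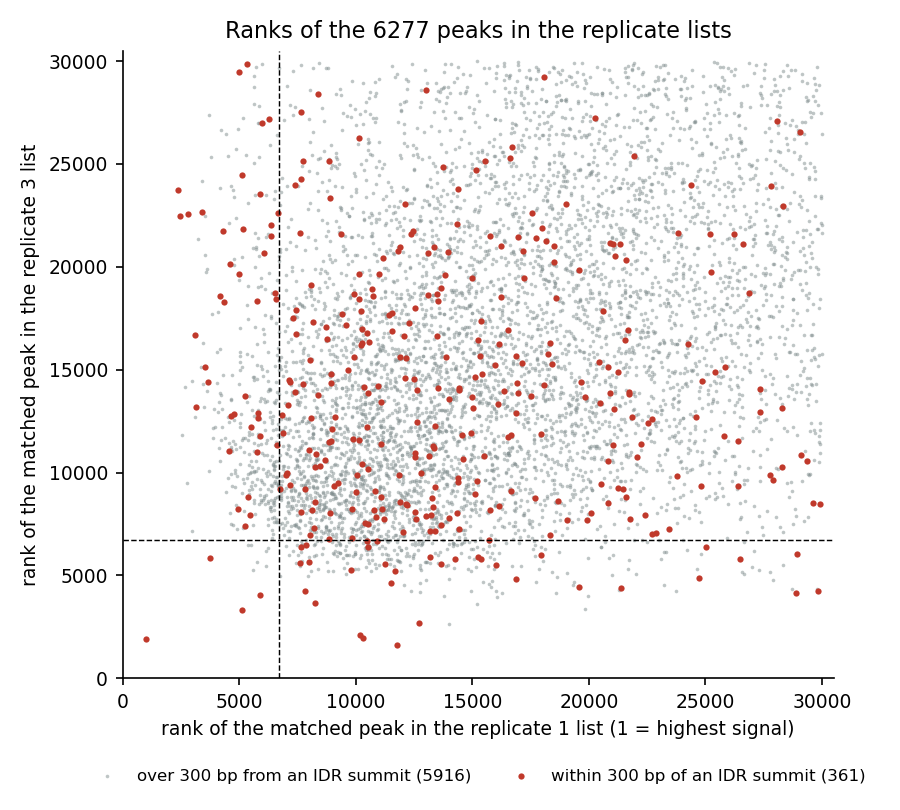
Rank of each of the 6277 weaker distal peaks in the replicate 1 list (x axis) and the replicate 3 list (y axis), where 1 is the highest signal and dashed lines mark rank 6723, the size of the IDR list. Red points are the 361 peaks within 300 bp of an IDR summit, which spread into the corners where the replicates differ; 11 of all the peaks lie below both dashed lines.

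A subset of the peaks sat beside an IDR summit at a narrow range of distances. None lay nearer than 199 bp. A total of 270 lay at 190 to 210 bp, 91 at 211 to 300 bp, 15 at 301 to 500 bp and 308 at 501 to 700 bp. Unmatched distal peaks had the same gap, with 424, 127, 27 and 269 peaks in those ranges. Widths were also uniform, with a median of 404 bp and both quartiles at that value.

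The 361 peaks within 300 bp of an IDR summit had less similar replicate ranks than the 5901 over 500 bp away. Their ranks differed by more than a factor of 2 in 29.9% (95% Wilson interval 25.4 to 34.8%), against 16.1% (15.2 to 17.1%). Their Spearman correlation of ranks was -0.04, against 0.357. In 21.9% (17.9 to 26.4%) the matched peak was within the first 6723 of a replicate, against 9.71% (8.98 to 10.5%). These intervals and those that follow cover the sampling of peaks only, and nearby peaks are not independent. Whether the peak caller's spacing of summits contributed was not tested.

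The 3 peaks with the largest rank ratio in each direction were all of this kind, while of the 6 largest ratios in either direction 4 were. In CG9795 the ranks were 2363 in replicate 1 and 23749 in replicate 3, in spdi 2465 and 22484, and in kuk, a nuclear lamina gene, 2793 and 22545. In the other direction, the peak near Rcd2 ranked 11774 and 1630, the one near CG43245 29823 and 4247, and the one in the autophagy gene Atg5 28868 and 4138. The IDR summits beside these 6 peaks were 201 to 204 bp away. The matched summit in the replicate of better rank lay 94, 80 and 30 bp from the peaks in CG9795, spdi and kuk. For Rcd2, CG43245 and Atg5 it lay 100, 23 and 45 bp away. Whether these ranks belong in part to the IDR peak was not tested. Over all peaks, 13 of the 46 with ranks over 5-fold apart lay within 300 bp of an IDR summit. The peak nearest to the CG17801 gene itself, 8478 bp from it and near CG7379 (3R, summit 17798607), was also 204 bp from an IDR summit and ranked 20091 and 8051.

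Most weaker distal peaks lay in introns. The share was 68.5% (67.4 to 69.7%), between 72.8% (71.1 to 74.4%) of IDR distal peaks and 61.6% (60.7 to 62.5%) of unmatched distal peaks, while introns made up 44.5% of all bases over 250 bp from a TSS. Among the intronic peaks 66.0% were in the first intron of a protein-coding transcript, against 43.3% of the intronic bases. Sequence between genes held 18.4% (17.5 to 19.4%) of the peaks and 30.9% of the bases.

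Shares in exons differed between the groups of peaks. Coding exons held 2.28% (1.94 to 2.68%) of the weaker distal peaks, 0.592% (0.370 to 0.945%) of IDR distal peaks and 6.08% (5.65 to 6.55%) of unmatched distal peaks, and 16.8% of the bases. For 3′ UTRs the shares were 5.74%, 3.06% and 8.83%, with 5.11% of the bases. For 5′ UTRs they were 3.06%, 4.28% and 2.80%, with 1.43% of the bases.

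The coding-exon share also moved with pooled rank. At ranks 6001 to 12000, coding exons held 1.43% (1.03 to 1.98%) of weaker distal peaks and 0.856% (0.366 to 1.99%) of unmatched ones. At ranks 18001 to 24000 the shares were 3.53% (2.61 to 4.75%) and 5.08% (4.41 to 5.84%), and the intronic shares 67.2% (64.5 to 69.9%) and 61.4% (59.8 to 63.0%). The coding-exon intervals of both groups overlapped in all 4 ranges of 6000 ranks, and the intronic intervals did not overlap at ranks 18001 to 24000 or 24001 to 30000.

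**Figure D2:**
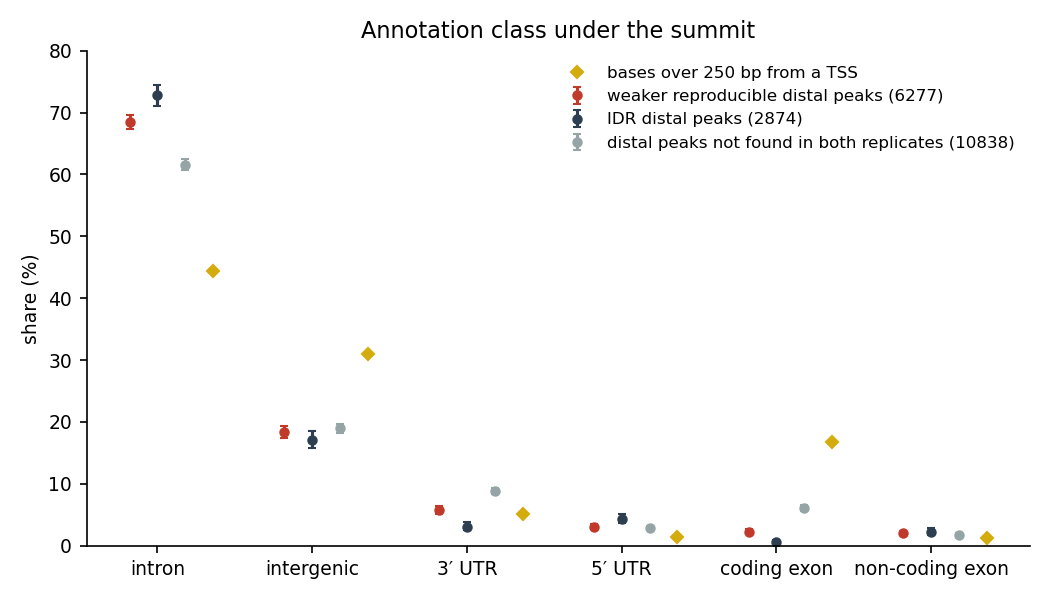
Share of summits in each annotation class (y axis, percent) for the 6277 weaker distal peaks, 2874 IDR distal peaks and 10838 unmatched distal peaks, with 95% Wilson intervals, beside the share of all bases over 250 bp from a TSS (diamonds). Weaker distal peaks sit between the other groups for introns, 3′ UTRs and coding exons.

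The strongest peaks in exons show what these classes hold. In 5′ UTRs they were at Unr, Frl, a formin gene, Nrg, which encodes the adhesion molecule neuroglian, su(Hw) and CG3829. The one in su(Hw), 453 bp from its TSS, ranked 4271 and 12190. In 3′ UTRs one lay in EcR, the ecdysone receptor gene, with ranks of 7494 and 6467, and one in Lsd-2, a lipid droplet gene, with 19292 and 7594. In coding exons the strongest were in CG42327, with ranks of 5529 and 9520, and Ubr1, a ubiquitin ligase gene, with 5207 and 9514. The coding-exon peak in Mondo ranked 28727 and 4327, so the replicates differed widely on it.

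Few weaker distal peaks lay in annotated transposon insertions or pericentric sequence. Annotated transposon insertions held 29 peaks, or 0.462% (0.322 to 0.663%), against 6.16% of the bases, and pericentric sequence 45, or 0.717% (0.536 to 0.958%), against 14.3%. At soft-masked bases, which mark repeats in the reference, lay 20.6% (19.6 to 21.6%) of the peaks, 25.6% of IDR distal peaks and 18.4% of unmatched ones, against 20.4% of the bases. The sources used here do not give how reads from repeats were treated. The X held 20.5% (19.5 to 21.5%) of the peaks and 17.9% of the bases. For IDR distal peaks the X share was 27.5% (25.9 to 29.1%) and for unmatched ones 19.7% (18.9 to 20.4%). Peaks on X numbered 58.7 per Mb of distal sequence, and on the other arms 46.6 to 52.5 per Mb.

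The peaks spread over most of the euchromatin but clustered in places. The median distance to the TSS was 2081 bp, with quartiles of 881 and 4913 bp, and to the next weaker distal peak 2502 bp. Of 2653 windows of 50000 bp, 63.6% held a peak and 84 held 10 or more. The window with the most, 19, lay within SNF4Agamma (chr3R:21150001-21200000), followed by 17 at sbb on 2R and 16 around hry, a pair-rule gene. Windows at sty, an antagonist of receptor tyrosine kinase signalling, Pdp1, a circadian transcription factor gene, and kibra, a Hippo pathway gene, held 15 each. For 48.5% (47.3 to 49.7%) of the peaks the nearest TSS belonged to a gene with an IDR peak at its promoter, against 53.1% (51.2 to 54.9%) of IDR distal peaks and 43.0% (42.1 to 43.9%) of unmatched ones.

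At the level of genes, 2098 of 13865 protein-coding genes on the 5 large arms held a weaker distal peak in the gene body, or 15.1%. A total of 303 held 5 or more and 66 held 10 or more. Of the 2098 genes, 861 (41.04%) also held an IDR distal peak, against 8.86% of all genes and 23.8% of all genes weighted to the same length classes. The 861 were 70.1% of the 1229 genes with an IDR distal peak. A further 659 (31.4%) had neither an IDR distal peak in the body nor an IDR peak at a TSS, against 66.1% of all genes and 53.4% when weighted by length. The share went with gene length, at 1.81% of genes under 2 kb, 16.1% from 2 to 10 kb, 55.7% from 10 to 50 kb and 65.4% over 50 kb.

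The 10 genes with the most peaks were long, and several encode regulators of transcription. The gene bun, of the TSC22 family of transcription factors, and mamo, a BTB zinc finger gene needed in the female germline, held 24 each. In bun the replicate 1 ranks ran from 5902 to 25558 and the replicate 3 ranks from 5673 to 29546. In mamo they ran from 5134 to 28303 and from 5596 to 29457. Glut4EF held 23, of which most also lie in CG46467, a gene that overlaps it and held 22.

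Eip74EF, an ecdysone-induced Ets factor gene, held 22 peaks in 60654 bp, or 3.63 per 10 kb, the highest density of the 10 genes. Its peaks ranked from 4173 to 25052 in replicate 1 and from 5631 to 29652 in replicate 3, and it held 5 IDR distal peaks. Eip75B, an ecdysone-induced nuclear receptor gene, held 19 peaks in 113744 bp, beside 12 IDR distal peaks. SNF4Agamma, the gamma subunit gene of AMP-activated kinase, held 22. The co-repressor gene sbb held 21, rdx, an adaptor of a Cul3 ubiquitin ligase, 20, and kek5, a transmembrane protein gene, 19. Of the 10, CG46467 and kek5 had no IDR peak at a promoter.

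The lists with the largest shares were of adhesion, signalling, ecdysone and follicle cell genes. The counts are set beside the share of all protein-coding genes of the same length classes, and no test was made. An IDR peak at a promoter was held by 27 of 37, 22 of 33, 13 of 22 and 18 of 29 genes of these lists. It was held by 3 of 33 neuronal and 5 of 31 Hox and homeobox genes, but by 12 of 21 insulator and 39 of 39 ribosomal protein genes. Among all protein-coding genes such a peak was held by 21.3% of those under 2 kb and 38.0% from 2 to 10 kb. It was held by 40.6% from 10 to 50 kb and 36.3% over 50 kb. The list shares below were not adjusted for promoter peaks. In the list of cytoskeleton and cell adhesion, 26 of 37 genes held a peak (70.3%, 54.2 to 82.5%), against 46.4% of genes of like length. Fas3, an adhesion molecule of follicle cells, and Tm1, a tropomyosin gene, held 11 each, and scrib, a polarity gene, 10. The strongest peak in Fas3 ranked 10190 and 6805, and the one in Tm1 12306 and 5507.

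In the signalling list of Notch, BMP, EGFR, JAK-STAT, Hedgehog and Wnt genes, 22 of 33 held a peak (66.7%, 49.6 to 80.2%), against 39.5%. The zinc finger gene shn of the BMP pathway held 14 peaks, mam, the Notch co-activator gene, 11, and tkv 8. In tkv none of the distal peaks was in the IDR list. In the follicle cell list 18 of 29 held a peak (62.1%, 44.0 to 77.3%), against 42.7%, led by Fas3 and by the polarity and junction genes baz and pyd with 9 each.

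In the ecdysone list 14 of 22 genes held a peak (63.6%, 43.0 to 80.3%), against 43.7%, and together they held 120 peaks. EcR held 14, beside 9 IDR distal peaks. Germline lists were nearer to genes of like length. Of genes for stem cells and early oogenesis 10 of 23 held a peak (43.5%, against 32.5%), and of maternal mRNA regulators 11 of 21 (52.4%, against 42.4%). The translational repressor genes pum and brat, which stand in both lists, held 15 and 5, and heph, a gene of the polypyrimidine tract binding family, 11.

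Shares were lower in other lists, though not always lower than among genes of like length. Of neuronal and synaptic genes 12 of 33 held a peak (36.4%, 22.2 to 53.4%), against 55.3%, although their median length was 37801 bp. Of Hox and homeobox regulators 8 of 31 did (25.8%, 13.7 to 43.2%), against 41.5%, and NK7.1 held 12 of that list's 34 peaks. Of piRNA pathway genes, which are expressed in the ovary, 2 of 25 did (8.0%, against 17.6%), in introns of mael and vas, the latter with ranks of 11904 and 8988. Of chorion and vitelline membrane genes 3 of 20 did (15%, against 7.36%), and of insulator and interband genes 3 of 21 (14.3%, against 16.99%), with 3 peaks in Trl, the GAGA factor gene.

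Ribosomal protein and glycolysis genes are short and had weaker distal peaks in 5 of 39 (12.8%, against 5.48%) and 5 of 14 (35.7%, 16.3 to 61.2%, against 10.999%). All 39 ribosomal protein genes had an IDR peak at a promoter. The strongest peak in PyK, the pyruvate kinase gene, ranked 14203 and 5336, and the one in Ald1, the aldolase gene, 20975 and 5025. Among 19 ZAD zinc finger genes, the family of CG17801, 3 held a peak (15.8%, against 15.003%), with 5 in mld, 4 in hang and 1 in nom.

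**Figure D3:**
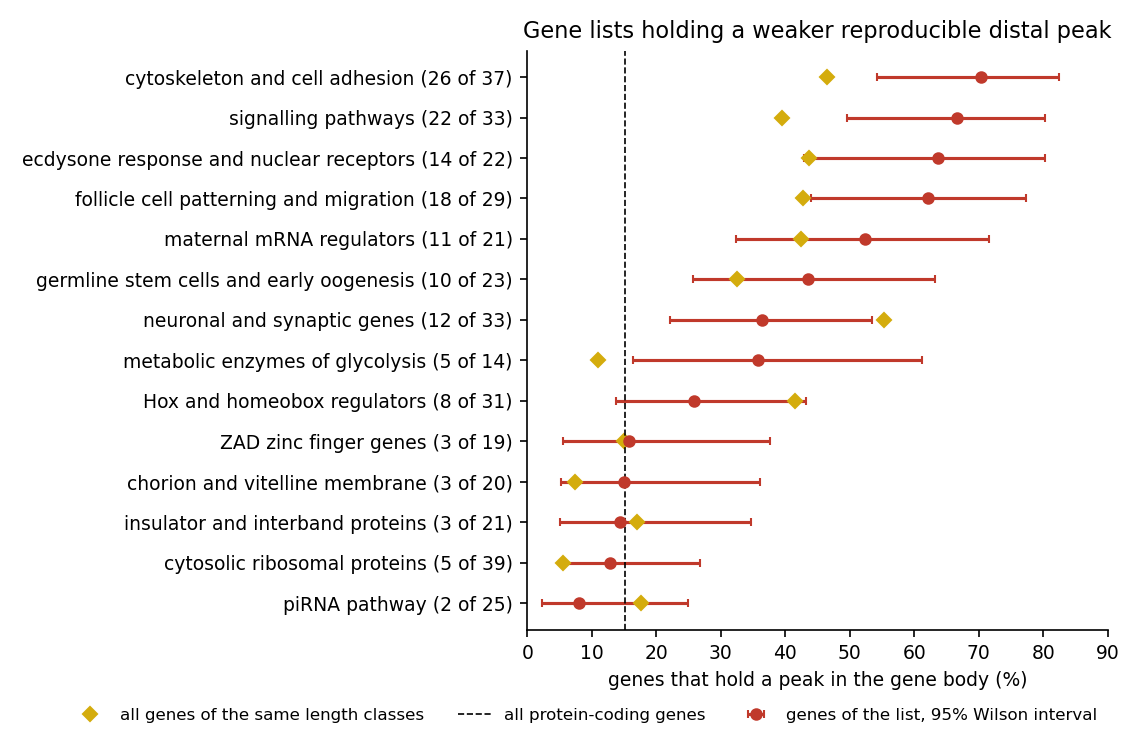
Share of genes in each of 14 lists that hold a weaker distal peak in the gene body (x axis, percent; red points with 95% Wilson intervals), beside all protein-coding genes weighted to the same length classes (diamonds) and the 15.1% of all genes (dashed line). Adhesion, signalling and glycolysis lists are among those right of their diamonds, while the neuronal list at 36.4% lies left of its 55.3%.

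The summits carried their own base composition. The mean A+T content of windows of 50 bp on each side was 61.2%, against 59.5% in windows 500 bp to each side of the same peaks and 59.6% in distal windows weighted to the same annotation classes. At the replicate summits it was 61.1% in both. IDR distal peaks had 64.2% and unmatched distal peaks 60.0%. Within the weaker distal peaks it went from 60.4% in the 1570 peaks of lowest signal to 61.8% in the 1569 of highest signal.

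Of the 42 panel motifs, which were searched on both strands, 27 were more frequent at the summits than in the flanks, 14 less and 1 equally. The intervals of summit and flank did not overlap for 11 that were higher and 7 that were lower. The panel's AGGTCA and TGACCT are reverse complements, so the same word is counted under both names among the 42, the 14 and the 7. AGATAA was in 9.24% (8.55 to 9.98%) of summit windows and 6.83% of flank windows. It was in 5.56% of all windows of that length on the arms, and in 8.70% and 9.37% of windows at the summits of replicates 1 and 3. Distal windows weighted to the same annotation classes had it in 6.06%. In IDR distal summits AGATAA was in 8.21% (7.26 to 9.27%), an interval that overlapped that of the weaker distal peaks. In unmatched distal summits it was in 7.39% (6.91 to 7.90%), which did not overlap. FoxO was in 3.52% against 2.40%, and the CA repeat, CACACACA, in 3.62% against 2.64%, with 1.89% and 2.11% of all windows. Of the weighted distal windows, 2.08% held FoxO and 2.56% the CA repeat. GAF, GAGAGA, was in 5.46% against 4.25%, and in 7.17% of IDR distal summits. FoxO and the CA repeat were in 3.55% and 3.41% of IDR distal summits, and in 3.04% and 3.13% of unmatched distal summits. At the summits of weaker matched peaks at promoters they were in 4.09% and 2.68%. For both words the intervals of these groups overlapped that of the weaker distal peaks.

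Of the promoter words in the panel, some were rare at the summits and others were not. The DRE, TATCGATA, was in 0.255% of the summits against 0.247% of the flanks, while 4.59% of the 2985 weaker matched peaks at promoters held it. For Ohler motif 1 the core GGTCACAC was in 0.191%, against 4.09% at those promoter peaks. The TATA box, TATAAA, was in 15.9% (15.03 to 16.8%) of the summits and 13.1% of flanks, against 13.2% at the promoter peaks. The initiator, TCAGT, was in 16.7% of summits and 16.2% of flanks, against 23.02%, and the BEAF-32 word CGATA in 13.5% (12.7 to 14.4%) and 11.8%, against 24.3%.

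GATAAG was singled out after a count of all 6-mers at the summits and flanks, among which it had the largest ratio of the words in at least 2% of peaks. It was in 605 summit windows, or 9.64% (8.93 to 10.4%), against 5.46% (5.08 to 5.88%) of flank windows and 4.33% of distal windows weighted to the same annotation classes. At the summits of replicates 1 and 3 it was in 9.53% and 9.51%. In IDR distal peaks it was in 6.33% (5.50 to 7.28%) at the summit and 5.67% in the flanks. In unmatched distal peaks it was in 6.81% (6.35 to 7.30%). The word was picked by its ratio in the weaker distal peaks and not in the other groups. Comparisons of its share between groups, here and below, are therefore a description and cannot show a difference. The A+T content of the weaker, IDR and unmatched distal peaks was 61.2%, 64.2% and 60.0%. Whether A+T content bears on the GATAAG share was not tested.

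The GATAAG share was also split by signal and place. It was 9.17% (7.84 to 10.7%) in the 1570 peaks of lowest signal and 10.96% (9.51 to 12.6%) in the 1569 of highest signal. Intronic peaks had 10.5% (9.60 to 11.4%), intergenic peaks 7.96% (6.53 to 9.66%) and coding-exon peaks 4.90% (2.39 to 9.76%). On X it was 8.17% (6.80 to 9.80%) and on the autosomes 10.02% (9.21 to 10.9%). The 361 peaks beside an IDR summit had 5.82% (3.84 to 8.73%), and those over 500 bp from one 9.86% (9.13 to 10.6%).

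Within ranges of pooled rank, weaker distal peaks had a higher GATAAG share than unmatched peaks in each of 4 ranges, with overlapping intervals in 3. At ranks 6001 to 12000 the shares were 10.3% (9.16 to 11.6%) and 8.05% (6.11 to 10.5%). At ranks 24001 to 30000 they were 9.97% (7.07 to 13.9%) and 6.08% (5.44 to 6.80%), with intervals that did not overlap. The groups were not matched for signal, since median pooled signal was also higher in the weaker distal peaks in each range. It was 88.4 against 85.0 at ranks 6001 to 12000, and 31.1 against 29.5 at ranks 24001 to 30000.

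The 605 peaks hold GATAAG within 50 bp of the summit by definition, which bounds the distances given here. The nearest copy was a median of 21.5 bp from the summit, and in 56.0% of the 605 peaks it was within 25 bp. The distance of a word placed at random in the window was not computed. A total of 525 peaks had 1 copy in the window and 80 had more, with at most 3. Of the 605, 92 were intergenic, and the others lay in 436 genes. The most in a gene was 4, in Drak, a death-associated protein kinase gene, of its 10 peaks, and in Tm1 of its 11. Drak and Tm1 were chosen here after their values were seen.

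**Figure D4:**
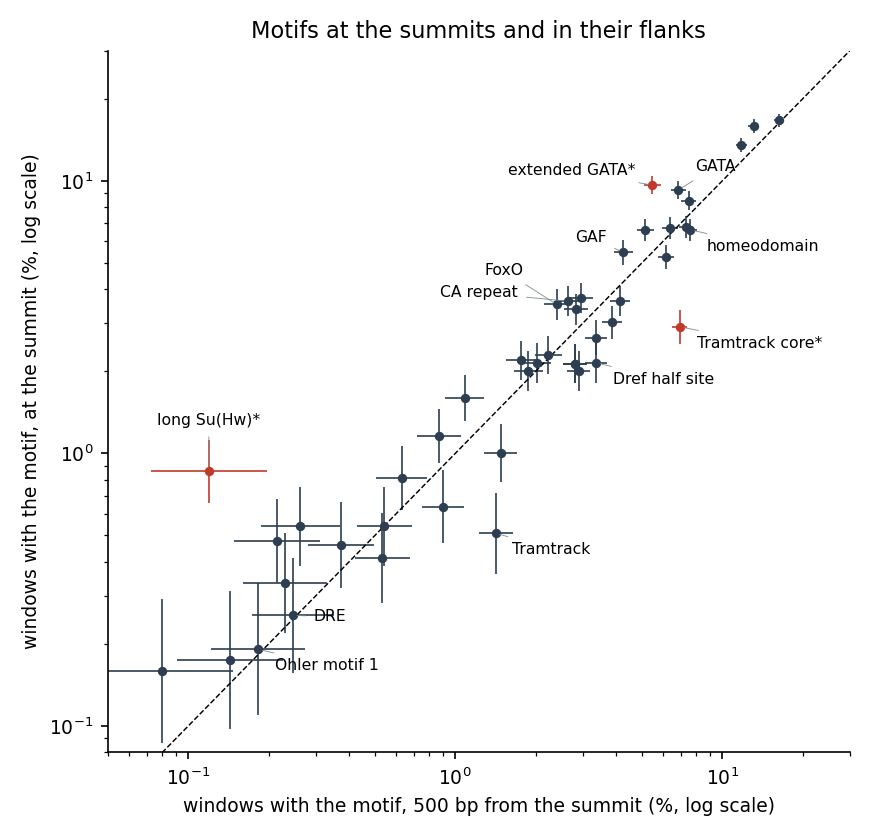
Share of the 6277 weaker distal peaks with each motif in a window of 50 bp on each side of the summit (y axis, log scale) and in windows 500 bp to each side (x axis, log scale), with 95% Wilson intervals and a dashed line of equality. The 42 panel motifs are dark and 3 words added after the data were seen are red with asterisks; the extended GATA word (GATAAG, 9.64%) lies above the line and the Tramtrack words lie below it.

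Words around AGGA were less frequent at the summits than in the flanks. The panel's Tramtrack word AGGACC, named for a zinc finger repressor, was in 0.51% (0.361 to 0.719%) of summits against 1.42% of flanks, the lowest ratio in the panel at 0.36. It was in 2.41% of all windows on the arms and 2.14% of distal windows weighted to the same annotation classes. The shorter AGGAC was in 2.92% (2.53 to 3.36%) of summits, 6.94% of flanks, 11.4% of all windows and 9.96% of the weighted distal windows. The 6-mer with the lowest ratio was CCAGGA, in 0.781% of summits and 2.90% of flanks. IDR distal peaks had the same low share of AGGAC, at 2.75% (2.21 to 3.41%), and unmatched distal peaks 4.24% (3.88 to 4.64%).

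Both words changed around the summit, though their extremes were not at it. In the weaker distal peaks GATAAG was highest 25 bp left of the summit, at 5.70%, and AGGAC was lowest there, at 1.32%. In IDR distal peaks AGGAC was lowest 75 bp right of the summit, at 1.18%. In windows of 50 bp, GATAAG went from 2.87% at 500 bp left of the summit to 5.48% at the summit, while IDR distal peaks went from 2.82% to 3.65% and unmatched distal peaks from 2.65% to 3.69%. AGGAC went from 3.63% to 1.77% in the weaker distal peaks, from 3.41% to 1.39% in IDR distal peaks and from 4.31% to 2.33% in unmatched distal peaks. The A+T peak was steeper in IDR distal peaks, from 59.5% to 64.4%, than in the weaker distal peaks, from 59.2% to 61.2%.

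**Figure D5:**
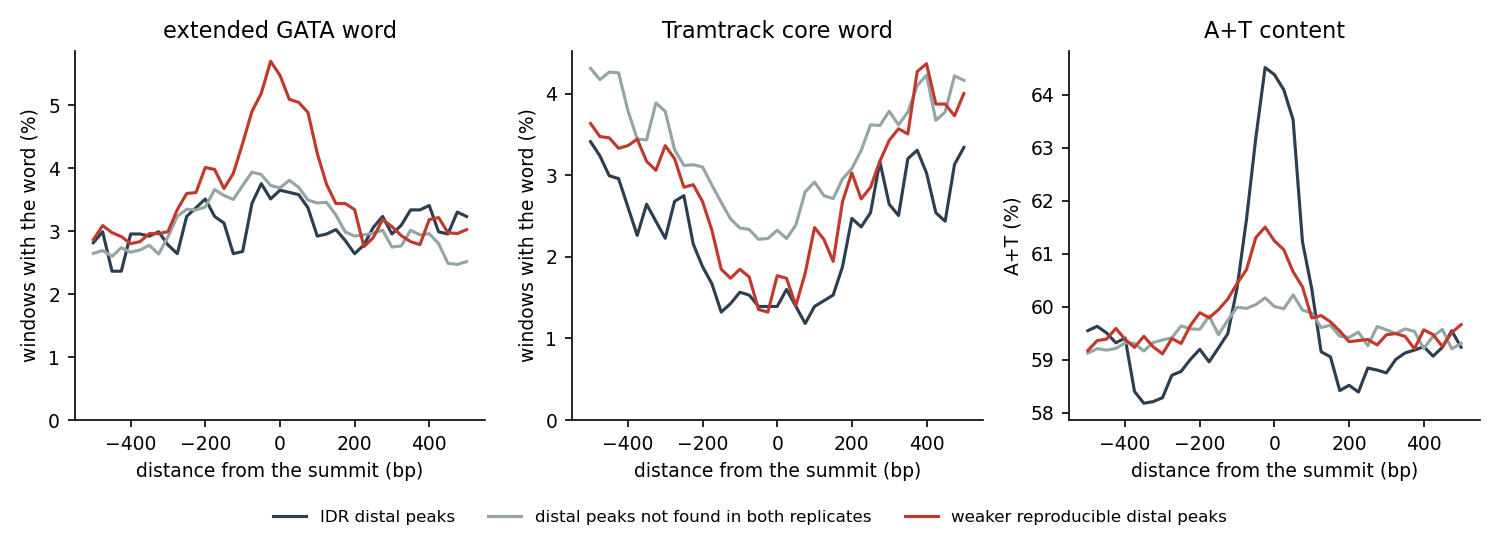
Share of 50 bp windows with the extended GATA word (left) and the Tramtrack core word (middle), and A+T content (right), against distance from the summit in bp, for weaker distal, IDR distal and unmatched distal peaks. Weaker distal peaks reach 5.48% for the GATA word at the summit, above the 3.65% of IDR distal peaks, and 1.77% for the Tramtrack word.

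The long Su(Hw) word TGCATACTT was added after the 8-mer count, where AAGTATGC and AGTATGCA, both contained in its reverse complement, had the largest ratios of the words in at least 1% of peaks. It was in 54 summits, or 0.86% (0.660 to 1.12%), against 0.119% (0.0724 to 0.197%) of flanks and 0.233% of distal windows of the same classes. IDR distal peaks had 0.592% (0.370 to 0.945%) and unmatched distal peaks 0.674% (0.536 to 0.846%), so the intervals overlapped. Of the 54 peaks 25 were intergenic and 25 intronic. The share was 2.16% (1.47 to 3.17%) of intergenic and 0.58% (0.39 to 0.86%) of intronic peaks. None of the 54 lay within 500 bp of an IDR summit, against 5.99% of all 6277 peaks, and the difference was not tested. The median ranks of the 54 were 16692.5 in replicate 1 and 18596.5 in replicate 3.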

How the data were processed

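ChIP-seq of 2 ovary samples, replicates 1 and 3 of 1 group, was read from 4 peak lists on dm6. Per the text deposited with the samples, the authors called peaks on each replicate and on both together, each time against a control, and derived the IDR list from the results. Which aligner and caller they used is not given in the sources used here, and read depth is unknown from peak lists. The signal values were deposited by the authors on an unstated scale, and ranks follow them within a list. The −log10 q-value deposited by the authors was not used. The summit offset is the distance in bp from the peak's start, per the deposited format.

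Peaks were matched by summit within 100 bp. TSSs were the starts of all transcripts in Ensembl release 115 (BDGP 6) but transposon entries. Where annotations overlap, a UTR at the 5′ end took precedence, followed by coding sequence, the 3′ UTR, exons of non-coding transcripts and introns. Motif windows spanned 50 bp on each side of the summit, and flanks were centred 500 bp away. Pericentric sequence began at 22 Mb on 2L and X and at 23 Mb on 3L, and ended at 5.4 Mb on 2R and 4.2 Mb on 3R. Shares carry 95% Wilson intervals. No test was made, since the peaks were chosen by measured values in 1 group. Matching and motif search were checked on simulated data. Tables were made in Python 3.11.15 with pandas 2.3.3 and numpy 2.4.6, intervals with scipy 1.17.1 and plots with matplotlib 3.10.9.

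The peaks, the 14 gene lists and the 42 motifs were chosen with earlier results of these data known. The 3 added words, the k-mer counts, the ranges of pooled rank and the bins of distance to an IDR summit were chosen after seeing the data. Of 373 list entries 4 were unmatched (ci, toy, ey, RpS3A). Named are the 12 peaks of highest signal, the 5 highest of each class, the 10 genes with the most peaks, up to 3 genes per list, the 3 largest rank ratios each way, the 3 peaks on each side of each limit and the peak nearest CG17801, and a selection of these is printed. Sequences were not taken from 2R or UTRs.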

Additional observations from a re-analysis of the deposited data

How the results depend on the processing

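Matching within 50 bp left 3888 peaks, 6.64% of them near (within 500 bp of) an IDR summit and 11.5% of genes holding a peak. Within 200 bp, 7.83% were near an IDR summit, A+T was 60.9% and 18.1% of genes held one. Over 500 bp and over 1000 bp from a TSS, introns held 71.5% and 73.8%, 4.43% and 4.16% were near an IDR summit, A+T was 61.3% and 61.5%, and 13.6% and 10.6% of genes held a peak. Requiring a match in only 1 replicate gave 9893 to 11134 peaks, introns at 65.9 to 66.6%, A+T of 60.5 to 61.1% and 19.9 to 21.4% of genes. AGATAA was then in 8.43 to 8.64%. Without peaks near an IDR summit A+T was 61.3%. Above the median signal and below it, 7.20% and 4.78% were near an IDR summit, with A+T of 61.7% and 60.8%. Windows of 25 and 100 bp on each side gave A+T of 61.4% and 60.9%, AGATAA in 4.27% and 17.2% and AGGACC in 0.319% and 1.13%. With 5000 bp on either side, 42.2% of genes held a peak. Counting transposon entries as TSSs left 6208. Over 13 alternatives the ratio of summit to flank stayed at 1.24 to 1.47 for AGATAA, 1.60 to 1.90 for GATAAG and 0.302 to 0.455 for AGGACC. Of 110 alternative values, 64 stayed within the interval or spread of the main one. The causes were not tested. No paired analysis was possible because there is 1 group. Signal scale, read depth, control and untagged data limit what the weak peaks can show, and the list length of 30000 bounds which can be matched.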

Other observations

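Some further words at the summits were not in the panel. GTGCAC was in 3.23% of the weaker distal peaks and 1.87% of their flanks, against 2.47% and 1.97% in IDR distal peaks. GAGCGAGA was in 1.37% of summits and 0.51% of flanks, and in 1.91% of IDR distal summits but 0.544% of unmatched ones. The panel's CTCF core, AGGTGGCG, was in 30 summits, or 0.478% (0.335 to 0.681%), against 0.215% of flanks and 0.80% of IDR distal summits. The CA repeat was in 9.38% (6.01 to 14.3%) of the 192 peaks in 5′ UTRs and 3.44% of intronic peaks, and GAF in 10.9% (7.27 to 16.1%) and 5.32%. The words GTGCAC and GAGCGAGA were chosen after their values were seen.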
